A study of Mus musculus with 12 samples.

Results

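The semaphorins, Slits and netrins are families of guidance cues, and the plexins, neuropilins, Robo proteins, Dcc and Unc5 proteins are their receptors. Members were chosen by gene symbol: every Sema3 to Sema7 gene, every Plxna to Plxnd gene, Slit1 to Slit3, Robo1 to Robo3, Unc5a to Unc5d, Ntn1 to Ntn5, Ntng1, Ntng2, Nrp1, Nrp2 and Dcc. The rule found 49 of the 24108 listed genes, and 47 of them were among the 13745 genes with enough counts to be tested. Slit3 and Plxna4os1, an antisense RNA of Plxna4, were not tested, with at most 1.26 and 0.301 CPM (counts scaled to library size) in any library.

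Bulk RNA-seq was made of neural stem/progenitor cells (NPCs) from the subventricular zone (SVZ) of C57BL/6 mice aged 9 to 12 postnatal days, in 12 libraries of 4 groups: p53-/- co-cultures, p53-/- NPCs alone, p53+/+ co-cultures and p53+/+ NPCs alone. For co-culture the cells stayed for 48 h on monolayers of purchased primary brain microvascular endothelial cells (bmvECs) and were recovered by selective trypsinization, and NPCs alone were plated on laminin for the same time. All groups shared a medium with FBS, N2, EGF, bFGF and bovine pituitary extract. The p53-/- NPCs were p53loxP/loxP cells infected with an adenovirus that carries iCre under the CMV promoter, so that p53 was removed in culture and in whichever cells were infected. The methods give an empty adenovirus as the control, whereas the labels call the control genotype wild type. Each group held 1 library from each of the experiments 17_9, 25_9 and 1_10, and values of the 3 libraries of a group are given in this order throughout.

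Guidance cues are secreted or membrane-bound proteins that attract or repel growing axons and migrating cells. Class 3 semaphorins act through neuropilins and plexins, the transmembrane semaphorins mostly through plexins alone, Slits through Robo receptors, and netrins through Dcc, which mediates attraction, and Unc5 receptors, which mediate repulsion. In the SVZ and its rostral stream Slit and Robo proteins are known for steering neuroblasts, and semaphorins, plexin D1, netrins and Unc5b also take part in the patterning of blood vessels.

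Levels are given as CPM, each count as a share of its library's total scaled by the trimmed mean of M values (TMM). Log2 fold changes are given ± SE, with the p of edgeR's quasi-likelihood test adjusted by Benjamini-Hochberg over the 13745 genes, and a call needs an adjusted p under 0.05 (n = 3 libraries per group). The comparisons are not independent: the co-culture effect in a genotype and the effect of p53 loss in a culture have a group in common. Total counts were 16509710 to 22245224 per library, of which the guidance genes took 0.225% to 0.294%. Trp53 had 18.4, 19.3 and 13.7 CPM in p53-/- co-cultures and 11.7, 14.7 and 17.4 CPM in p53-/- NPCs alone, against 61.8, 65.9 and 78.8 CPM in p53+/+ co-cultures and 80.3, 96.6 and 109 CPM in p53+/+ NPCs alone, so that part of its RNA remained. The p53 target Cdkn1a lay at 4.74 to 31.2 CPM in p53-/- libraries, against 350.2 to 458 CPM in p53+/+ libraries. All 10 NPC and astroglial markers were present in every group, and their summed level moved with co-culture, at 16750 to 20289 CPM in p53-/- co-cultures, against 10650 to 12896 CPM in p53-/- NPCs alone, and 22153 to 31434 CPM in p53+/+ co-cultures, against 12275 to 15694 CPM in p53+/+ NPCs alone, with 3 markers called higher and 2 lower in each genotype. Of 8 oligodendrocyte lineage markers tested 1 was higher and 2 lower in p53-/- co-cultures, and 4 higher and 2 lower in p53+/+ co-cultures, and the only microglial marker with enough counts was higher in both. Of 9 neuroblast markers tested 1 was higher and 0 lower in p53-/- co-cultures, and 2 higher and 2 lower in p53+/+ co-cultures. The summed level of 10 neuroblast markers was 68.0 to 110 CPM in p53-/- co-cultures, against 54.4 to 76.8 CPM in p53-/- NPCs alone. In p53+/+ NPCs that sum was 78.2 to 143 CPM in co-culture, against 53.8 to 84.1 CPM alone. The summed level of 20 endothelial markers was 122 to 149 CPM in p53-/- co-cultures, against 17.1 to 22.0 CPM in p53-/- NPCs alone. In p53+/+ NPCs it was 133 to 217 CPM in co-culture, against 18.7 to 20.6 CPM alone, and Sox17 and Mmrn2 were at 0 in all libraries of NPCs alone. All 18 endothelial markers tested were called higher in co-culture in both genotypes, and the part of these shifts, or of endothelial RNA, in the co-culture values of the guidance genes was not tested. Bulk libraries also cannot tell a change in the share of a cell type from a change in RNA per cell.

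Co-culture changed many guidance genes, and more members rose than fell. In p53-/- NPCs 16 of the 47 members rose (18.8% of all genes did) and 4 fell (17.0% of all genes), 10 and 1 of them by more than 2-fold (9.67% and 1.88% of all genes). In p53+/+ NPCs 15 rose (21.2% of all genes) and 7 fell (18.3%), 10 and 4 of them by more than 2-fold (10.7% and 4.78%). The median log2 fold change of the members was 0.18 in both genotypes, beside -0.01 in p53-/- and 0.00 in p53+/+ NPCs over all genes tested. For calls of any size, the share that rose was above the background in both genotypes and the share that fell was below it in both. For changes of more than 2-fold, neither the share that rose nor the share that fell was below the background in either genotype. None of these shares was tested. Of the members, 12 rose in both genotypes, 4 fell in both and none was called in opposite directions. The shares of all genes called in both genotypes were not counted, so these numbers are not read as particular to the members.

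**Figure D1:**
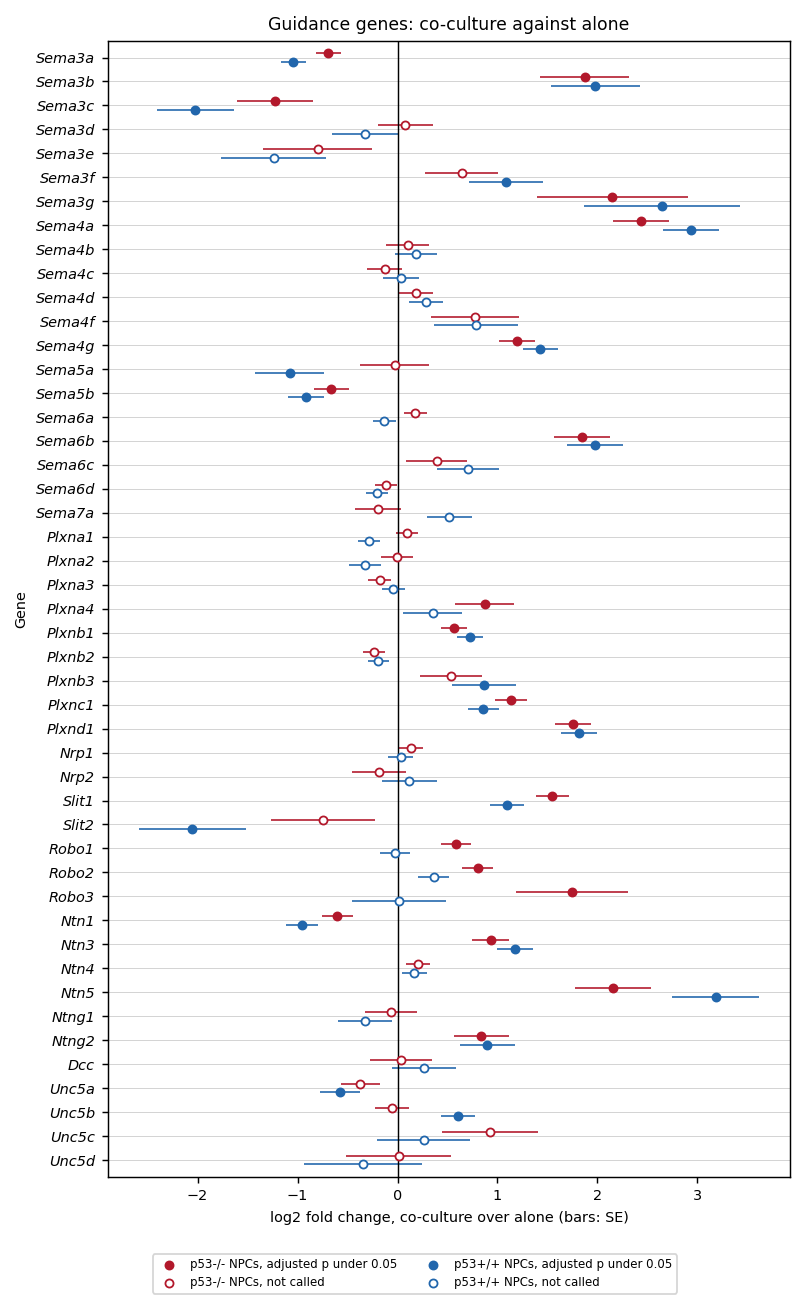
The log2 fold change of co-culture over alone is plotted on the x axis for each of the 47 tested guidance genes on the y axis, with red points for p53-/- NPCs above blue points for p53+/+ NPCs, bars for SE and filled points for an adjusted p under 0.05. Filled points of Sema4a, Ntn5, Sema6b and Plxnd1 lie far to the right in both genotypes, and those of Sema3c and Sema3a lie to the left in both.

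The secreted class 3 semaphorins moved in both directions. Sema3b and Sema3g were higher in co-culture in both genotypes, Sema3f was higher in p53+/+ NPCs, and Sema3a and Sema3c were lower in both. Sema3a, which repels axons through neuropilin-1 and A-type plexins, had 38, 43.7 and 50.6 CPM in p53-/- co-cultures, against 74, 64.3 and 75.3 CPM in p53-/- NPCs alone. In p53+/+ NPCs it had 26.6, 28.4 and 30.8 CPM in p53+/+ co-cultures, against 59.9, 57.8 and 58.9 CPM in p53+/+ NPCs alone. Its log2 fold changes were -0.69 ± 0.12 (SE, adjusted p = 0.00115) in p53-/- and -1.04 ± 0.12 (SE, adjusted p = 5.52e-05) in p53+/+ NPCs. Every co-culture library lay below every library of NPCs alone of its genotype, with nearly identical levels among the 3 p53+/+ libraries alone. Sema3c, which can bind either neuropilin, had 5.76, 5.32 and 6.18 CPM in p53-/- co-cultures, against 20.9, 9.02 and 10.5 CPM in p53-/- NPCs alone. In p53+/+ NPCs its levels were 4.96, 4.19 and 4.64 CPM in p53+/+ co-cultures, against 31.4, 14.1 and 10.8 CPM in p53+/+ NPCs alone. It fell by 1.23 on the log2 scale in p53-/- NPCs (adjusted p = 0.023) and by 2.02 in p53+/+ NPCs (adjusted p = 0.00139). The groups did not overlap in either genotype, but the library of NPCs alone from experiment 17_9 stood well above the other libraries alone. In p53-/- NPCs the call was lost without the p53-/- co-culture library of 17_9 or 25_9 or the p53-/- alone library of 17_9 (log2 fold changes from -1.23 to -0.76).

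Sema3b, a secreted semaphorin that acts through neuropilins, had 5.36, 3.92 and 2.93 CPM in p53-/- co-cultures, against 1.65, 1.14 and 0.499 CPM in p53-/- NPCs alone, and 6.1, 4.46 and 3.95 CPM in p53+/+ co-cultures, against 2.12, 0.944 and 0.661 CPM in p53+/+ NPCs alone. The log2 fold changes were 1.88 ± 0.45 (SE, adjusted p = 0.00635) in p53-/- and 1.98 ± 0.45 (SE, adjusted p = 0.00389) in p53+/+ NPCs. Libraries of co-culture and alone did not overlap, and in each group the library of experiment 17_9 was the highest. Without the p53+/+ alone library of 17_9 the value in p53+/+ NPCs was 2.58. Sema3g, known from the endothelium of arteries, was close to the limit of detection, at 0.651, 0.603 and 0.542 CPM in p53-/- co-cultures, against 0.0485, 0.319 and 0 CPM in p53-/- NPCs alone. In p53+/+ NPCs Sema3g had 1.04, 0.592 and 0.527 CPM in p53+/+ co-cultures, against 0.187, 0.149 and 0 CPM in p53+/+ NPCs alone. It was called higher with log2 fold changes of 2.15 ± 0.75 (SE, adjusted p = 0.0405) in p53-/- and 2.65 ± 0.78 (SE, adjusted p = 0.017) in p53+/+ NPCs. The levels did not overlap, but they rest on 0 to 19 counts per library. In p53-/- NPCs the call was lost without the p53-/- co-culture library of 17_9 or 25_9 or 1_10, the p53-/- alone library of 17_9 or 1_10, the p53+/+ co-culture library of 25_9 or the p53+/+ alone library of 25_9 (log2 fold changes from 1.63 to 2.21), and without the p53-/- alone library of 25_9 it was kept at 4.23. In p53+/+ NPCs it was lost without the p53+/+ co-culture library of 17_9 or the p53+/+ alone library of 1_10 (log2 fold changes from 2.05 to 2.32).

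Sema3f, a ligand of neuropilin-2, had 5.51, 4.67 and 2.6 CPM in p53-/- co-cultures, against 4.12, 2.6 and 1.44 CPM in p53-/- NPCs alone. In p53+/+ NPCs Sema3f had 6.16, 5.46 and 4.58 CPM in p53+/+ co-cultures, against 3.19, 2.58 and 1.88 CPM in p53+/+ NPCs alone. Co-culture and alone overlapped in p53-/- NPCs and not in p53+/+ NPCs. The log2 fold changes were 0.64 ± 0.36 (adjusted p = 0.185) in p53-/- and 1.09 ± 0.37 (adjusted p = 0.0317) in p53+/+ NPCs, and with a block for the experiment that in p53-/- NPCs was 0.67 ± 0.21 (adjusted p = 0.0215). The call in p53+/+ NPCs was lost without the p53+/+ co-culture library of 17_9 or 25_9 or the p53+/+ alone library of 25_9 or 1_10 (log2 fold changes from 0.90 to 1.10). Sema3e, which binds plexin D1 directly, was not called, at -0.80 ± 0.54 (adjusted p = 0.27) in p53-/- and -1.24 ± 0.52 (adjusted p = 0.0764) in p53+/+ NPCs, and with the block the value in p53+/+ NPCs was -1.15 ± 0.28 (adjusted p = 0.00491). Sema3d was not called, with 0.08 ± 0.28 (adjusted p = 0.849) and -0.32 ± 0.33 (adjusted p = 0.543) in the same order of genotypes.

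Among the transmembrane semaphorins of classes 4 and 6, 3 rose in both genotypes and none was called lower. Sema4a, which binds plexins of the B and D types, had 8.46, 9.09 and 7.05 CPM in p53-/- co-cultures, against 1.21, 2.28 and 0.999 CPM in p53-/- NPCs alone. The levels in p53+/+ NPCs were 12.2, 10.8 and 8.8 CPM in p53+/+ co-cultures, against 1.31, 1.29 and 1.53 CPM in p53+/+ NPCs alone. Co-culture raised it 5.42-fold in p53-/- NPCs (log2 fold change 2.44 ± 0.28 (SE, adjusted p = 5.26e-05)) and 7.66-fold in p53+/+ NPCs (2.94 ± 0.28 (SE, adjusted p = 1.06e-05)). The co-culture libraries were far above those alone, and the 3 p53+/+ libraries alone differed little. Sema6b, a ligand of A-type plexins, had 12.6, 13.4 and 7.37 CPM in p53-/- co-cultures, against 2.47, 4.28 and 2.5 CPM in p53-/- NPCs alone, and 13.7, 16.4 and 12.1 CPM in p53+/+ co-cultures, against 2.87, 4.27 and 3.51 CPM in p53+/+ NPCs alone. Its log2 fold changes were 1.84 ± 0.28 (adjusted p = 0.00045) and 1.98 ± 0.28 (adjusted p = 0.000185). All co-cultures of a genotype were above all libraries alone, with the lowest p53-/- co-culture in experiment 1_10.

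Sema4g, a ligand of plexin B2, had 29.8, 36.3 and 26.9 CPM in p53-/- co-cultures, against 12.1, 17.3 and 11.2 CPM in p53-/- NPCs alone. In p53+/+ NPCs Sema4g had 50.7, 50.6 and 44.7 CPM in p53+/+ co-cultures, against 16.2, 20.2 and 18 CPM in p53+/+ NPCs alone. It rose by 1.20 ± 0.18 (SE, adjusted p = 0.000347) in p53-/- and by 1.43 ± 0.18 (SE, adjusted p = 6.86e-05) in p53+/+ NPCs on the log2 scale. The groups did not overlap, and the p53-/- co-cultures lay below the p53+/+ co-cultures. The calls of Sema4a, Sema6b and Sema4g held in every fit without 1 library in both genotypes. Sema4b, Sema4c, Sema4d, a ligand of plexin B1, and Sema4f were not called in either genotype, with log2 fold changes from -0.13 to 0.79. Of class 6, Sema6a and Sema6d were not called, from -0.21 to 0.18, and Sema6c was at 0.39 ± 0.30 (adjusted p = 0.336) in p53-/- and 0.70 ± 0.31 (adjusted p = 0.0888) in p53+/+ NPCs, where the block gave 0.69 ± 0.24 (adjusted p = 0.0285).

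Of the class 5 semaphorins, transmembrane proteins with thrombospondin repeats, Sema5b was lower in co-culture in both genotypes and Sema5a in p53+/+ NPCs. Sema5b had 64.8, 80.8 and 73.2 CPM in p53-/- co-cultures, against 126, 125 and 95.3 CPM in p53-/- NPCs alone, and 37, 55 and 60.2 CPM in p53+/+ co-cultures, against 86, 98.3 and 103 CPM in p53+/+ NPCs alone. The log2 fold changes were -0.66 ± 0.17 (SE, adjusted p = 0.0111) in p53-/- and -0.92 ± 0.18 (SE, adjusted p = 0.00148) in p53+/+ NPCs. All co-cultures were below all libraries alone of the genotype, and the call in p53-/- NPCs was lost without the p53-/- co-culture library of 17_9 (log2 fold change -0.59). Sema5a, a ligand of plexin B3, had 26.6, 31.8 and 45.2 CPM in p53-/- co-cultures, against 19.7, 38.4 and 47.6 CPM in p53-/- NPCs alone. In p53+/+ NPCs its levels were 21.2, 23.3 and 49.6 CPM in p53+/+ co-cultures, against 59.2, 59.8 and 80.00 CPM in p53+/+ NPCs alone. It fell in p53+/+ NPCs (-1.08 ± 0.35 (SE, adjusted p = 0.0263)), whereas the value in p53-/- NPCs was -0.03 ± 0.35 (adjusted p = 0.956). The p53-/- co-cultures lay within the range of the p53-/- libraries alone, and in every group the library of experiment 1_10 was the highest. The call was lost without the p53+/+ co-culture library of 17_9 or 25_9 or the p53+/+ alone library of 1_10 (log2 fold changes from -0.93 to -0.85). Sema7a, which is anchored to the membrane by GPI and binds plexin C1, was not called, at -0.20 ± 0.23 (adjusted p = 0.533) in p53-/- and 0.52 ± 0.23 (adjusted p = 0.0865) in p53+/+ NPCs. With the block it was called higher in p53+/+ NPCs, 0.51 ± 0.17 (adjusted p = 0.0239).

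Of the 9 plexins, the receptors of semaphorins, Plxnd1, Plxnc1 and Plxnb1 rose in both genotypes. Plxnd1, a receptor of Sema3e that is known from blood vessels, had 216, 209 and 149 CPM in p53-/- co-cultures, against 52.4, 71.5 and 45.8 CPM in p53-/- NPCs alone. In p53+/+ NPCs it was at 279.8, 279 and 227 CPM in p53+/+ co-cultures, against 70.7, 77.9 and 75.2 CPM in p53+/+ NPCs alone. The increase was 3.38-fold in p53-/- NPCs (log2 fold change 1.76 ± 0.18 (SE, adjusted p = 2.37e-05)) and 3.51-fold in p53+/+ NPCs (1.81 ± 0.18 (SE, adjusted p = 1.28e-05)). Every co-culture library was well above every library alone of its genotype. Plxnc1, the receptor of Sema7a, had 44, 41.4 and 44.7 CPM in p53-/- co-cultures, against 15.6, 20.8 and 22.9 CPM in p53-/- NPCs alone, and 44.7, 37.7 and 47.4 CPM in p53+/+ co-cultures, against 25.1, 20.01 and 26.4 CPM in p53+/+ NPCs alone. It rose by 1.13 ± 0.16 (adjusted p = 0.000243) in p53-/- and 0.86 ± 0.16 (adjusted p = 0.00108) in p53+/+ NPCs on the log2 scale. The co-cultures of both genotypes had nearly the same levels. Plxnb1, the receptor of Sema4d, had 287, 277 and 230.0 CPM in p53-/- co-cultures, against 174, 206 and 157 CPM in p53-/- NPCs alone, and 402, 428 and 343 CPM in p53+/+ co-cultures, against 239, 236 and 233 CPM in p53+/+ NPCs alone. The changes of 0.56 ± 0.13 (adjusted p = 0.0055) and 0.73 ± 0.13 (adjusted p = 0.000923) on the log2 scale came with no overlap between co-culture and alone. The calls of these 3 plexins held without any 1 of the 12 libraries, and that of Plxnb1 in p53-/- NPCs was lost without experiment 17_9 (log2 fold change 0.50).

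Of the plexins that rose in co-culture in both genotypes, Plxnb1, Plxnc1 and Plxnd1, the promoters of Plxnc1 and Plxnd1 are shown as examples. They are the 250 bases before the start in the RefSeq promoter table (GRCm38.p6), which was matched to the counts by symbol, since the counts were made on mm9. The Plxnc1 promoter lies at chr10:94944846-94945095 on the reverse strand and the Plxnd1 promoter at chr6:115995006-115995255 on the reverse strand. Capitals mark an interferon-type motif, GAAANNGAAA on either strand, 118 to 109 bases before the Plxnc1 start.
Plxnc1: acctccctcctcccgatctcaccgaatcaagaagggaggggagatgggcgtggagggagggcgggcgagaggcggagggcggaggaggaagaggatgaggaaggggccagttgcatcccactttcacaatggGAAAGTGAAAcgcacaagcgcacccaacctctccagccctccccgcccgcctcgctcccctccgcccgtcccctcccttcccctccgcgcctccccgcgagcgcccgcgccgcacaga
Plxnd1: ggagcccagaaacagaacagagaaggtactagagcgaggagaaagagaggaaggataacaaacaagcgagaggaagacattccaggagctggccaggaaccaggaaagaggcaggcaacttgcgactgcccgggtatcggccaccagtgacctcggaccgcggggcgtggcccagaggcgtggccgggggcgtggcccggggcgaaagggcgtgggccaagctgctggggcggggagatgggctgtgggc
The motif stood in 2.98% of all 32851 promoters of the table and in 2 of the 52 promoters of 39 guidance genes, those of Plxnc1 and Sema6b (3.85%). The Plxnd1 window held no match to it. Such a match describes the letters only.

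Plxna4, a receptor of A-type that works with neuropilins, rose in p53-/- NPCs, where it had 9.16, 4.67 and 4.83 CPM in p53-/- co-cultures, against 2.57, 4.28 and 3.33 CPM in p53-/- NPCs alone. Its log2 fold change was 0.87 ± 0.30 (SE, adjusted p = 0.0358), with 1 high co-culture library, that of experiment 17_9. The call was lost without the p53-/- co-culture library of 17_9 or the p53-/- alone library of 17_9 or 1_10 (log2 fold changes from 0.47 to 0.84). In p53+/+ NPCs Plxna4 was at 0.35 ± 0.30 (adjusted p = 0.367). Whether the counting used strand is not given, so reads of Plxna4 and its antisense RNA may not be told apart. Plxnb3, the receptor of Sema5a, had 10.9, 16.8 and 13.2 CPM in p53+/+ co-cultures, against 5.12, 10.3 and 6.92 CPM in p53+/+ NPCs alone, and was called higher in p53+/+ NPCs (0.87 ± 0.32 (SE, adjusted p = 0.0481)). The groups were close, and the call was lost without the p53-/- co-culture library of 17_9 or 25_9 or 1_10, the p53-/- alone library of 1_10, the p53+/+ co-culture library of 17_9 or 25_9 or 1_10 or the p53+/+ alone library of 17_9 or 1_10 (log2 fold changes from 0.66 to 1.01). In p53-/- NPCs Plxnb3 was at 0.53 ± 0.31 (adjusted p = 0.199), and with the block at 0.61 ± 0.23 (adjusted p = 0.0455). Plxna1, Plxna2, Plxna3 and Plxnb2 were not called, with log2 fold changes from -0.33 to 0.10 in the 2 genotypes. With the block Plxna1 and Plxna2 were called lower in p53+/+ NPCs, at -0.29 ± 0.10 (adjusted p = 0.0354) and -0.34 ± 0.12 (adjusted p = 0.039). The neuropilins, co-receptors of class 3 semaphorins and of VEGF, were also not called. Nrp1 had 51.3, 44.3 and 54.2 CPM in p53-/- co-cultures, against 44.3, 45.2 and 46.9 CPM in p53-/- NPCs alone, and 52.5, 43.3 and 55.9 CPM in p53+/+ co-cultures, against 51.4, 44.6 and 52.3 CPM in p53+/+ NPCs alone. The level of Nrp2 lay between 3.66 and 9.88 CPM over all 12 libraries. The Nrp1 levels of co-culture and alone overlapped in both genotypes.

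**Figure D2:**
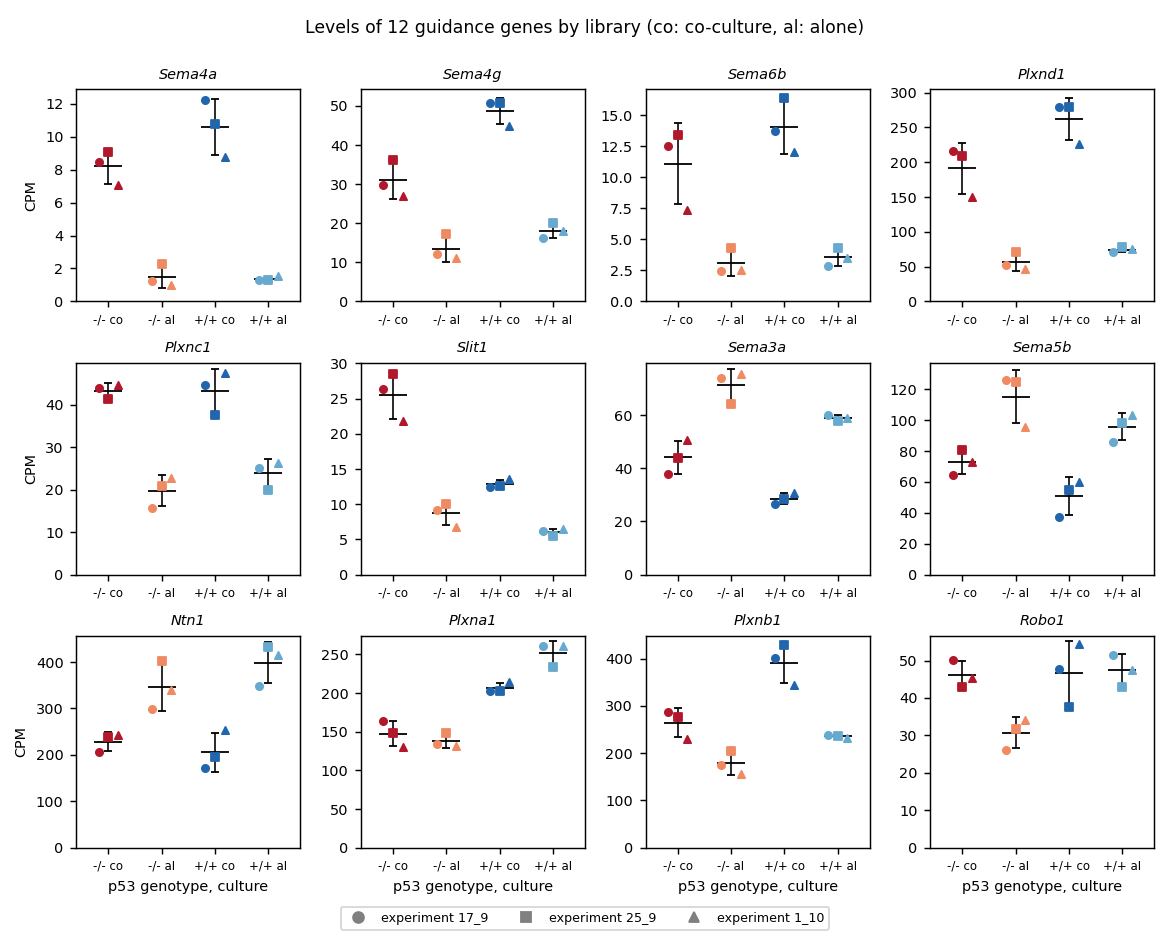
Levels in CPM (y axis, from 0) are plotted for 12 guidance genes in the 4 groups (x axis), with a point for each library by experiment, a black line for the group mean and bars for SD. Sema4a, Sema4g, Sema6b, Plxnd1, Plxnc1 and Slit1 are higher in co-culture in both genotypes, Sema3a, Sema5b and Ntn1 are lower, and Plxna1 is lower in p53-/- NPCs in both cultures.

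The Slits split. Slit1, a secreted repellent made by migrating neuroblasts, had 26.3, 28.5 and 21.8 CPM in p53-/- co-cultures, against 9.21, 10.1 and 6.82 CPM in p53-/- NPCs alone. In p53+/+ NPCs Slit1 was at 12.5, 12.6 and 13.6 CPM in p53+/+ co-cultures, against 6.19, 5.46 and 6.41 CPM in p53+/+ NPCs alone. It rose 2.93-fold in p53-/- NPCs (log2 fold change 1.55 ± 0.17 (SE, adjusted p = 3.83e-05)) and 2.14-fold in p53+/+ NPCs (1.10 ± 0.17 (SE, adjusted p = 0.000394)). The p53-/- co-cultures had the highest levels of the 4 groups, with no overlap with any other library. Slit2, another Slit, had 2.4, 2.06 and 1.57 CPM in p53-/- co-cultures, against 6.01, 1.96 and 2.16 CPM in p53-/- NPCs alone. The p53+/+ levels of Slit2 were 1.53, 0.956 and 1.37 CPM in p53+/+ co-cultures, against 10.00, 3.18 and 2.9 CPM in p53+/+ NPCs alone. It was called lower in p53+/+ NPCs (-2.05 ± 0.54 (SE, adjusted p = 0.00913)), and its value in p53-/- NPCs was -0.75 ± 0.52 (adjusted p = 0.281). The library alone of experiment 17_9 was the highest in each genotype, and without it in p53+/+ NPCs the value was -1.25, with the call kept (adjusted p = 0.0478).

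The Robo receptors of the Slits were called in p53-/- NPCs. Robo1 had 50.03, 42.8 and 45.4 CPM in p53-/- co-cultures, against 26.2, 31.7 and 34.2 CPM in p53-/- NPCs alone. In p53+/+ NPCs it had 47.8, 37.5 and 54.5 CPM in p53+/+ co-cultures, against 51.6, 43 and 47.6 CPM in p53+/+ NPCs alone. The log2 fold change was 0.59 ± 0.15 (SE, adjusted p = 0.00982) in p53-/- NPCs and -0.02 ± 0.15 (adjusted p = 0.917) in p53+/+ NPCs. The p53-/- libraries alone were the lowest of all 12, while the other 3 groups overlapped. Robo2 had 101, 77.2 and 86.5 CPM in p53-/- co-cultures, against 55.8, 48.7 and 47 CPM in p53-/- NPCs alone, and 91.6, 77.6 and 85.9 CPM in p53+/+ co-cultures, against 82.7, 55.6 and 60.1 CPM in p53+/+ NPCs alone. Its values were 0.80 ± 0.16 (SE, adjusted p = 0.00215) in p53-/- and 0.36 ± 0.16 (adjusted p = 0.0813) in p53+/+ NPCs, and with the block that in p53+/+ NPCs was 0.38 ± 0.10 (adjusted p = 0.00777). The p53-/- groups of Robo2 were apart, whereas the p53+/+ groups overlapped. Robo3, best known from commissural axons, had few counts, with 0.701, 0.452 and 0.38 CPM in p53-/- co-cultures, against 0.291, 0.0455 and 0.111 CPM in p53-/- NPCs alone, and was called higher at 1.74 ± 0.56 (SE, adjusted p = 0.0281) in p53-/- NPCs, against 0.02 ± 0.47 (adjusted p = 0.983) in p53+/+ NPCs. That call was lost without the p53-/- co-culture library of 17_9 or 25_9 or the p53-/- alone library of 25_9 or 1_10 (log2 fold changes from 1.29 to 1.82), and without the p53-/- alone library of 17_9 it was kept at 2.66. DESeq2 did not call Robo3, with or without the block. That a Robo gene was called in 1 genotype only does not show a difference between the genotypes, which is tested as the interaction.

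Among the netrins, Ntn3 and Ntn5 rose and Ntn1 fell. Ntn1, the netrin best known as an attractant of commissural axons, had 205, 239 and 242 CPM in p53-/- co-cultures, against 298, 402 and 341 CPM in p53-/- NPCs alone. In p53+/+ NPCs its levels were 171, 195 and 253 CPM in p53+/+ co-cultures, against 348, 431 and 416 CPM in p53+/+ NPCs alone. It fell by 0.60 on the log2 scale in p53-/- (adjusted p = 0.0113) and by 0.95 in p53+/+ NPCs (adjusted p = 0.000617). Co-cultures were below NPCs alone in all pairs of libraries, and in p53-/- NPCs the call was lost without the p53-/- co-culture library of 17_9 (log2 fold change -0.54). Ntn3, a secreted netrin, had 6.16, 6.23 and 5.1 CPM in p53-/- co-cultures, against 2.57, 3.69 and 2.89 CPM in p53-/- NPCs alone, and 9.21, 9.69 and 9.12 CPM in p53+/+ co-cultures, against 4.0, 4.32 and 4.07 CPM in p53+/+ NPCs alone. The log2 fold changes of Ntn3 were 0.93 ± 0.19 (adjusted p = 0.00248) in p53-/- and 1.18 ± 0.18 (adjusted p = 0.000372) in p53+/+ NPCs. The 3 libraries of each p53+/+ group were close to each other. Ntn5 had 1.95, 2.26 and 1.36 CPM in p53-/- co-cultures, against 0.194, 0.592 and 0.444 CPM in p53-/- NPCs alone, and 1.85, 1.59 and 1.58 CPM in p53+/+ co-cultures, against 0.125, 0.149 and 0.254 CPM in p53+/+ NPCs alone. It rose by 2.16 ± 0.38 (adjusted p = 0.0011) in p53-/- and by 3.18 ± 0.44 (adjusted p = 0.000147) in p53+/+ NPCs on the log2 scale, with no overlap between groups and low levels throughout. The levels alone rest on 4, 13 and 8 counts in p53-/- and 2, 3 and 5 counts in p53+/+ NPCs.

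Ntng2, a GPI-anchored netrin-G that binds Lrrc4 at synapses, had 7.11, 8.34 and 5.58 CPM in p53-/- co-cultures, against 4.02, 5.24 and 2.44 CPM in p53-/- NPCs alone, and 10.7, 12.6 and 9.64 CPM in p53+/+ co-cultures, against 6.44, 6.95 and 4.27 CPM in p53+/+ NPCs alone. The log2 fold changes were 0.84 ± 0.28 (SE, adjusted p = 0.0321) and 0.90 ± 0.27 (SE, adjusted p = 0.0192) in the same order. Co-cultures were above libraries alone in each genotype, by a small margin in p53-/- NPCs. The call was lost in p53-/- NPCs without the p53-/- co-culture library of 17_9 or 25_9 or the p53-/- alone library of 17_9 or 1_10 (log2 fold changes from 0.58 to 0.85), and in p53+/+ NPCs without the p53+/+ co-culture library of 25_9 or the p53+/+ alone library of 1_10 (log2 fold changes from 0.71 to 0.80). Ntn4, a netrin of basement membranes, and Ntng1 were not called, from -0.33 to 0.20.

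Of the 5 netrin receptors tested, 1 rose and 1 fell in p53+/+ NPCs (21.2% and 18.3% of all genes did). None was called in p53-/- NPCs (18.8% of all genes rose and 17.0% fell). Unc5b, a repulsive netrin receptor that is also found on endothelial tip cells, had 38.8, 42.2 and 43.5 CPM in p53-/- co-cultures, against 36.3, 46.4 and 47 CPM in p53-/- NPCs alone. In p53+/+ NPCs Unc5b had 47.3, 45.9 and 55.2 CPM in p53+/+ co-cultures, against 24.9, 31.7 and 41 CPM in p53+/+ NPCs alone. It rose in p53+/+ NPCs (0.60 ± 0.17 (SE, adjusted p = 0.0132)), with a value of -0.06 ± 0.17 (adjusted p = 0.818) in p53-/- NPCs. The p53+/+ libraries alone of 17_9 and 25_9 were the lowest of all. Unc5a had 4.74, 6.23 and 6.96 CPM in p53+/+ co-cultures, against 7.37, 8.94 and 10.4 CPM in p53+/+ NPCs alone, and was called lower in p53+/+ NPCs (-0.57 ± 0.20 (SE, adjusted p = 0.0353)). All its p53+/+ co-cultures were below all p53+/+ libraries alone, by a small margin, and the call was lost without the p53+/+ co-culture library of 17_9 or 25_9 or the p53+/+ alone library of 25_9 or 1_10 (log2 fold changes from -0.60 to -0.42). In p53-/- NPCs Unc5a was at -0.37 ± 0.20 (adjusted p = 0.154). Unc5c was not called, at 0.92 ± 0.48 (adjusted p = 0.148) in p53-/- NPCs, where the block gave 0.94 ± 0.29 (adjusted p = 0.0199), and 0.26 ± 0.46 (adjusted p = 0.681) in p53+/+ NPCs. Dcc, the attractive netrin receptor, and Unc5d were not called, with log2 fold changes from -0.34 to 0.27.

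The libraries of NPCs alone from experiment 17_9 stood apart in Acta2 and Tagln, 2 of a list of 12 markers of mural cells and fibroblasts. Acta2, the smooth muscle actin, had 765 and 432 CPM in the p53-/- and p53+/+ libraries alone of 17_9, and 14 to 63.6 CPM in the other 10 libraries. Tagln followed with 441 and 239.8 CPM, and 23.2 to 48.7 CPM in the others. In p53-/- NPCs the other 10 markers summed to 11.3, 7.06 and 5.16 CPM alone and 22.0, 12.9 and 11.3 CPM in co-culture. In p53+/+ NPCs they summed to 4.56, 3.53 and 2.90 CPM alone and 9.70, 9.24 and 8.22 CPM in co-culture. Their highest sum in each genotype was in a co-culture. Sema3c, Slit2 and Sema3e each had their 2 highest levels in the p53-/- and p53+/+ libraries alone of 17_9. Without both of them, an alternative chosen after the data were seen, the log2 fold change of Sema3c was -0.76 in p53-/- and -1.44 in p53+/+ NPCs, and that of Slit2 was -1.25 in p53+/+ NPCs, all still called. The part of other cells in these levels was not tested.

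**Figure D3:**
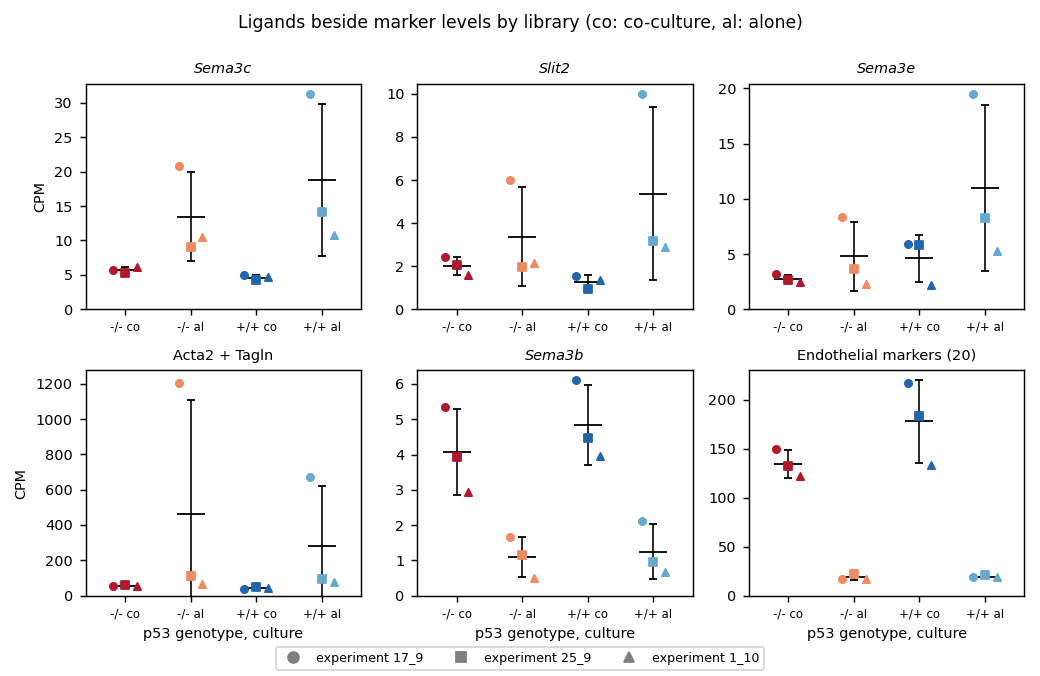
Levels in CPM (y axis, from 0) of 4 guidance ligands, of Acta2 and Tagln summed and of 20 endothelial markers summed are plotted by group (x axis), with a point for each library by experiment, a line for the mean and bars for SD, which end at 0 where they would go below it. Sema3c, Slit2, Sema3e and the sum of Acta2 and Tagln share their highest points in the libraries alone of experiment 17_9, and Sema3b and the endothelial sum are higher in co-culture.

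Loss of p53 changed fewer guidance genes than co-culture did. In NPCs alone 2 of the 47 members were lower in p53-/- than in p53+/+ NPCs (4.27% of all genes were) and none was higher (2.02% of all genes), with 8 higher and 13 lower at an unadjusted p under 0.05 (12.1% and 11.7% of all genes). DESeq2 called 1 higher and 4 lower (3.75% and 6.97% of its genes). With a block for the experiment edgeR called 6 members higher (7.25% of all genes) and 10 lower (9.33%). In co-culture 3 were higher (3.24% of all genes) and 5 lower (4.93%), and with the block 5 higher (9.99%) and 7 lower (10.9%). The median log2 fold change of the members was -0.14 alone and 0.02 in co-culture, beside 0.05 and 0.02 over all genes. Plxna1 was the only member called in the same direction in both cultures without the block, and with it 6 members were lower and 3 higher in both. The shares of all genes called in both cultures were not counted.

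**Figure D4:**
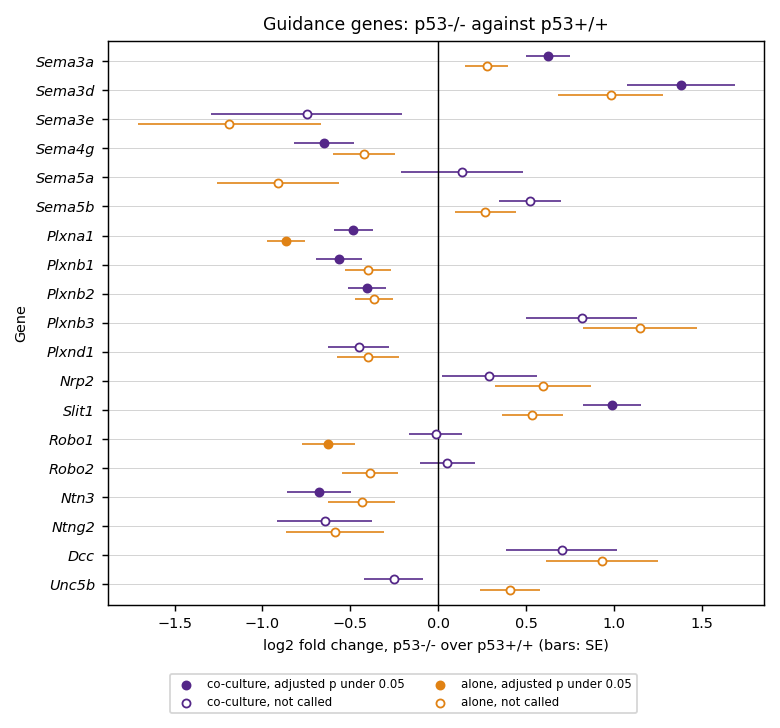
The log2 fold change of p53-/- over p53+/+ NPCs is plotted on the x axis for the 19 guidance genes (y axis) that either fit called in at least 1 culture, with purple points for co-culture above orange points for NPCs alone, bars for SE and filled points for an adjusted p under 0.05 without the block. Plxna1 is filled and to the left in both cultures, and Sema3d and Slit1 are filled and to the right in co-culture.

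Without the block, plexins, which were 9 of the 47 members tested, were 1 of the 2 genes lower alone and 3 of the 5 lower in co-culture. Of all genes 4.27% were lower alone and 4.93% in co-culture. Plxna1, a receptor shared by class 3 and class 6 semaphorins, had 134, 148 and 132 CPM in p53-/- NPCs alone, against 261, 234 and 261 CPM in p53+/+ NPCs alone. In co-culture it had 163, 149 and 131 CPM in p53-/- co-cultures, against 202, 203 and 214 CPM in p53+/+ co-cultures. The log2 fold change was -0.87 ± 0.11 (SE, adjusted p = 0.000479) alone, and -0.48 ± 0.11 (SE, adjusted p = 0.0184) for co-cultures. No p53-/- library reached the lowest p53+/+ library of either culture, and the call alone held without any 1 library. In co-culture it was lost without the p53-/- co-culture library of 25_9 or 1_10 or the p53+/+ co-culture library of 17_9 or 25_9 (log2 fold changes from -0.51 to -0.40). Plxnb1 was at 287, 277 and 230.0 CPM in p53-/- co-cultures, against 402, 428 and 343 CPM in p53+/+ co-cultures, and Plxnb2, a plexin of neural progenitors, was at 462, 423 and 393 CPM in p53-/- co-cultures, against 558, 589 and 549 CPM in p53+/+ co-cultures. In co-culture Plxnb1 fell by 0.56 (adjusted p = 0.0206) and Plxnb2 by 0.41 (adjusted p = 0.0353) on the log2 scale. All p53-/- libraries were below all p53+/+ libraries for both genes. Alone the values were -0.40 ± 0.13 (adjusted p = 0.0902) and -0.36 ± 0.11 (adjusted p = 0.0634), which the block called lower, at -0.41 ± 0.10 (adjusted p = 0.0162) and -0.37 ± 0.09 (adjusted p = 0.0186). The call in co-culture was lost for Plxnb1 without the p53-/- co-culture library of 25_9 or 1_10 or the p53+/+ co-culture library of 17_9 or 25_9 (log2 fold changes from -0.60 to -0.47), and for Plxnb2 without the p53-/- co-culture library of 25_9 or 1_10, the p53+/+ co-culture library of 17_9 or 25_9 or the p53+/+ alone library of 25_9 or 1_10 (log2 fold changes from -0.43 to -0.35). Plxnd1 was not called, at -0.40 ± 0.18 (adjusted p = 0.192) in NPCs alone and -0.45 ± 0.17 (adjusted p = 0.127) in the co-cultures, and with the block was lower in both, at -0.42 ± 0.13 (adjusted p = 0.0438) and -0.46 ± 0.13 (adjusted p = 0.0236).

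Plxnb3 went the other way from these plexins in the fit with the block. It had 9.4, 22.8 and 17.6 CPM in p53-/- NPCs alone, against 5.12, 10.3 and 6.92 CPM in p53+/+ NPCs alone, and in co-culture 27.6, 26.2 and 18.2 CPM in p53-/- co-cultures, against 10.9, 16.8 and 13.2 CPM in p53+/+ co-cultures. Without the block its log2 fold changes were 1.15 ± 0.32 (adjusted p = 0.0535) in NPCs alone and 0.82 ± 0.31 (adjusted p = 0.127) in the co-cultures, and with it 1.14 ± 0.24 (adjusted p = 0.00842) and 0.86 ± 0.23 (adjusted p = 0.0211). The co-cultures of the genotypes did not overlap, while the libraries alone did in 1 p53-/- library, that of 17_9.

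Robo1 was the other gene called in NPCs alone, with 26.2, 31.7 and 34.2 CPM in p53-/- NPCs alone, against 51.6, 43 and 47.6 CPM in p53+/+ NPCs alone. Its log2 fold change was -0.63 ± 0.15 (SE, adjusted p = 0.0291), and in co-culture it was -0.02 ± 0.15 (adjusted p = 0.963). The p53-/- libraries alone were all lower than the p53+/+ libraries alone, but the call was lost without the p53-/- alone library of 17_9 or the p53+/+ alone library of 17_9 or 1_10 (log2 fold changes from -0.62 to -0.52). Robo2 was at -0.39 ± 0.16 (adjusted p = 0.156) alone, and with the block at -0.37 ± 0.10 (adjusted p = 0.0274). Ntn3 had 6.16, 6.23 and 5.1 CPM in p53-/- co-cultures, against 9.21, 9.69 and 9.12 CPM in p53+/+ co-cultures. It was lower in p53-/- co-cultures (-0.68 ± 0.18 (SE, adjusted p = 0.0361)), and at -0.44 ± 0.19 (adjusted p = 0.184) alone. The groups did not overlap in either culture, and the call was lost without the p53-/- co-culture library of 17_9 or 25_9 or 1_10, the p53+/+ co-culture library of 17_9 or 25_9 or 1_10 or the p53+/+ alone library of 25_9 or 1_10 (log2 fold changes from -0.73 to -0.59). Ntng2 was not called in either culture without the block, and with it was at -0.60 ± 0.17 (adjusted p = 0.0314) in NPCs alone and -0.66 ± 0.16 (adjusted p = 0.0126) in the co-cultures.

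The promoters of Robo1 and Ntn3 are shown because Robo1 was called lower in p53-/- NPCs alone, Ntn3 was called lower in p53-/- co-cultures, and both windows hold a match to the p53 half-site. They are the 250 bases before the start in RefSeq (GRCm38.p6), at chr16:72662899-72663148 on the forward strand for Robo1 and at chr17:24209388-24209637 on the reverse strand for Ntn3. Capitals mark the half-sites, 213 to 204 and 109 to 100 bases before the Robo1 start and 51 to 42 bases before the Ntn3 start.
Robo1: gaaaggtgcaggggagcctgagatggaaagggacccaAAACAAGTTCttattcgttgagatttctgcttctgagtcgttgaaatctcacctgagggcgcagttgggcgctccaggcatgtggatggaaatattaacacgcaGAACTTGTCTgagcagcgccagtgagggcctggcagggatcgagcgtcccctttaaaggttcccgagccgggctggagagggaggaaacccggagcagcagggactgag
Ntn3: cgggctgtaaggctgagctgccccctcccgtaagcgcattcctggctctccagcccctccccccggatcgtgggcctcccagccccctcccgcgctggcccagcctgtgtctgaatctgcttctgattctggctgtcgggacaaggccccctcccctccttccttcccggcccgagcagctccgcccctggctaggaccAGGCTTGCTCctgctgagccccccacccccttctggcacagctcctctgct
A half-site stood in 7.13% of all promoters of the table and in 4 of the 52 promoters of guidance genes (7.69%), those of Sema4d, Robo1, Ntn3 and Plxna3. Sema4d was not called for p53 loss, at -0.22 ± 0.17 (adjusted p = 0.476) in NPCs alone and -0.32 ± 0.17 (adjusted p = 0.274) in the co-cultures, nor was Plxna3, at 0.05 ± 0.12 (adjusted p = 0.824) and -0.09 ± 0.12 (adjusted p = 0.679). Plxna1, Plxnb1, Plxnb2 and Sema4g, also called lower in p53-/- NPCs, were not among the genes with a half-site. The promoter table held 39 of the 49 members, and which of these genes it held is not given here. Binding of p53 to these letters was not measured in these libraries. The study also mapped p53 binding in wild-type NPCs alone and in co-culture, and those data were not used here.

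The 3 genes called higher in co-culture without the block were ligands. With the block 5 were called higher in co-culture, among them the receptor Plxnb3. The 6 that the block called higher alone were the receptors Dcc, Nrp2, Plxnb3 and Unc5b and the ligands Slit1 and Sema3d. Slit1 had 26.3, 28.5 and 21.8 CPM in p53-/- co-cultures, against 12.5, 12.6 and 13.6 CPM in p53+/+ co-cultures, and alone 9.21, 10.1 and 6.82 CPM in p53-/- NPCs alone, against 6.19, 5.46 and 6.41 CPM in p53+/+ NPCs alone. It was 1.98-fold higher in p53-/- co-cultures (log2 fold change 0.99 ± 0.17 (SE, adjusted p = 0.00443)), and at 0.53 ± 0.17 (adjusted p = 0.0873) alone, where the block gave 0.52 ± 0.17 (adjusted p = 0.0497). Its p53-/- libraries were above the p53+/+ libraries in both cultures, and the call in co-culture held without any 1 library but was lost without experiment 17_9 or 25_9 (log2 fold changes 0.93 and 0.88). Sema3a had 38, 43.7 and 50.6 CPM in p53-/- co-cultures, against 26.6, 28.4 and 30.8 CPM in p53+/+ co-cultures, and was higher in p53-/- co-cultures (0.62 ± 0.12 (SE, adjusted p = 0.00944)). Alone Sema3a was at 0.28 ± 0.12 (adjusted p = 0.192). The groups did not overlap in either culture. The call was lost without the p53+/+ co-culture library of 17_9 (log2 fold change 0.56), and also without experiment 25_9 or 1_10. Sema3d, a secreted class 3 semaphorin with low counts here, had 1.0, 1.05 and 0.867 CPM in p53-/- co-cultures, against 0.381, 0.364 and 0.369 CPM in p53+/+ co-cultures. It was called higher in co-culture (1.38 ± 0.31 (SE, adjusted p = 0.0165)) and was at 0.98 ± 0.30 (adjusted p = 0.0723) alone, where the block gave 0.98 ± 0.29 (adjusted p = 0.0401). The levels were steady within each group, DESeq2 did not call it, and the edgeR call was lost without the p53-/- co-culture library of 25_9 or the p53+/+ co-culture library of 17_9 or 25_9 (log2 fold changes from 1.32 to 1.38).

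Sema4g was the only semaphorin called lower for p53 loss without the block. It had 29.8, 36.3 and 26.9 CPM in p53-/- co-cultures, against 50.7, 50.6 and 44.7 CPM in p53+/+ co-cultures, with a log2 fold change of -0.65 ± 0.17 (SE, adjusted p = 0.0349) in co-culture and -0.42 ± 0.18 (adjusted p = 0.169) alone, where the block gave -0.44 ± 0.13 (adjusted p = 0.0349). The co-cultures of the genotypes did not overlap, and the call was lost without the p53-/- co-culture library of 17_9 or 1_10 or the p53+/+ co-culture library of 17_9 or 25_9 (log2 fold changes from -0.64 to -0.55). The block also called Sema3e and Sema5a lower alone, at -1.18 ± 0.28 (adjusted p = 0.0151) and -0.98 ± 0.18 (adjusted p = 0.00402), and Dcc, Nrp2 and Unc5b higher alone, at 0.92 ± 0.25 (adjusted p = 0.0276), 0.63 ± 0.19 (adjusted p = 0.0404) and 0.42 ± 0.12 (adjusted p = 0.0325). In co-culture it called Sema5b higher, at 0.53 ± 0.16 (adjusted p = 0.0306). None of these was called without the block.

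The interaction asked whether the co-culture effect in p53-/- NPCs differed from that in p53+/+ NPCs. EdgeR called none of the 47 members higher or lower, with or without the block (0% of all genes were called higher and 0.0364% lower without it, and 0.0218% and 0.0582% with it), and 5 members had an unadjusted p under 0.05 (7.10% of all genes did), 3 of them higher (4.14%) and 2 lower (2.96%). DESeq2 called none without the block (0.0522% of its genes were higher and 0.122% lower), and with it called Sema5a higher (1.67% of its genes) and Unc5b lower (0.588%), with log2 differences of 1.18 ± 0.27 (SE, adjusted p = 0.00282) and -0.66 ± 0.20 (adjusted p = 0.0363). The edgeR values of the 5 members were 0.38 ± 0.15 for Plxna1, 0.61 ± 0.21 for Robo1, 1.73 ± 0.74 for Robo3, -0.72 ± 0.32 for Sema7a and -0.66 ± 0.24 for Unc5b (SE). Their adjusted p-values ranged from 0.684 to 0.70. Where a member was called in 1 genotype only, as the Robo genes, Slit2, Unc5a and Unc5b were, edgeR did not show the genotypes to differ.

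Without the block, 29 of the 47 members were called in at least 1 of the 4 pairwise comparisons (51.1% of all genes were) and 18 in none. With it 36 were called (66.4% of all genes) and 11 were not. Those not called by either fit were Nrp1, Ntn4, Ntng1, Plxna3, Sema4b, Sema4c, Sema4d, Sema4f, Sema6a, Sema6d and Unc5d. They include genes with ample counts. Sema6d, a ligand of plexin A1, had 207 to 297 CPM, and Sema6a had 98.9 to 146 CPM over the 12 libraries. Sema4f and Unc5d had at most 1.09 and 2.85 CPM. A missing call does not show that a level was the same.

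Other genes of the guidance pathways, 20 co-receptors and further ligands and 56 effectors inside the cell, were also counted, with 73 of the 76 tested. In co-culture 21 rose and 4 fell in p53-/- NPCs (18.8% and 17.0% of all genes), and 19 rose and 10 fell in p53+/+ NPCs (21.2% and 18.3%). Robo4, the Robo protein of endothelial cells, is also on the endothelial marker list and rose by 3.72 ± 0.64 (adjusted p = 0.000915) in p53-/- and 3.17 ± 0.61 (adjusted p = 0.00146) in p53+/+ NPCs on the log2 scale. Fes, a tyrosine kinase that acts downstream of Sema3a, rose by 2.01 ± 0.39 (adjusted p = 0.00208) and 2.61 ± 0.46 (adjusted p = 0.000827). Trim67, a ubiquitin ligase that interacts with Dcc, rose by 1.66 ± 0.24 (adjusted p = 0.000338) and 2.55 ± 0.25 (adjusted p = 1.31e-05). Flrt3, a membrane ligand of Unc5 receptors, fell most in both, by 1.36 (adjusted p = 0.0019) and 1.70 (adjusted p = 0.000414) on the log2 scale. Crmp1, a collapsin response mediator, and the focal adhesion kinase Ptk2 were next in p53-/- NPCs, at -0.87 ± 0.30 (adjusted p = 0.0361) and -0.36 ± 0.09 (adjusted p = 0.0104). In p53+/+ NPCs the exchange factor Trio also fell, at -0.67 ± 0.15 (adjusted p = 0.00365).

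For p53 loss, 2 of these genes were higher and 5 lower alone (2.02% and 4.27% of all genes), and 2 higher and 1 lower in co-culture (3.24% and 4.93%). Srgap1, a GTPase activator that binds Robo receptors, was lower in both cultures, at -0.86 ± 0.14 (SE, adjusted p = 0.00254) in NPCs alone and -0.54 ± 0.13 (SE, adjusted p = 0.0278) in the co-cultures. Draxin, a secreted repellent that binds Dcc, was higher in both, at 1.11 ± 0.29 (SE, adjusted p = 0.0388) and 1.15 ± 0.28 (SE, adjusted p = 0.0255). Alone Mical1, an effector of plexins, was higher (1.26 ± 0.28 (adjusted p = 0.0175)), and the integrin Itga1 and the kinase Dapk1, a partner of Unc5 proteins, were lower (-1.34 ± 0.30 (adjusted p = 0.0189) and -0.60 ± 0.14 (adjusted p = 0.0279)). In co-culture Dpysl2, also named CRMP2, was higher (0.60 ± 0.14 (adjusted p = 0.0243)). None of these 73 genes was called in the interaction by edgeR, with or without the block, and 8 had an unadjusted p under 0.05 (7.10% of all genes did).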

How the data were processed

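Bulk RNA-seq covered 12 libraries from 3 independent experiments, with 3 libraries in each of 4 groups. Per the labels and the methods, the authors made stranded mRNA libraries, sequenced paired reads, aligned them to mm9 (TopHat2 2.0.11) and counted them per gene (HTSeq 0.6.1). The raw counts that the authors deposited were used. For the annotation and strand setting, a value is not given in the sources used here. Symbols were used as listed. Of them 27 were turned into dates, and none of those is named.

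The members, the pathway list and the marker lists were chosen with earlier results of these data known. All members were accounted for. Those called in a comparison were named with their values, those called in none with their range, and of the 76 pathway genes up to 3 called genes of the largest change on each side of each pairwise comparison were named, except for some that are not reported here. Of 18810 genes with a count, 13745 passed filterByExpr in edgeR 4.0.16 under R 4.3.3. TMM factors ranged from 0.961 to 1.04. The quasi-likelihood fit took all 12 libraries with a coefficient for each group, and 5 comparisons were tested, including the interaction. P-values were adjusted over all genes tested, with a threshold of 0.05 and a log2 limit of 1 for counts over 2-fold. The SE is the size of the log2 fold change over the square root of F. Depth limits the precision of genes with few counts. The p-values rest on the spread between libraries within groups, pooled over the 4 groups and shared in part across genes. Neither the main fit nor the fits without 1 library or 1 experiment used the pairing of the experiments.

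The experiment numbers pair the libraries, as the key of the study's table of counts says. The deviations of 2 libraries from their group means had r of 0.128 to 0.618 in the 18 pairs that share a number and of -0.608 to 0.241 in the 36 that do not. The numbers could not be tied to the repeat numbers of the labels. Libraries of a group were checked for copies, and in 12 pairs the differences had 13.3 to 62.6 times the counting variance. The alternatives were DESeq2 1.42.0, the experiment block, DESeq2 size factors, library size alone, no filter, a minimum of 10 counts in each library, only the groups compared, and fits without each library or experiment. The scripts were tested on simulated data. Promoters were taken from the RefSeq table by symbol, which held 52 promoters of 39 of the 49 genes. The p53 half-site is the 10-letter consensus of p53 binding, searched on both strands. Figures were drawn with matplotlib 3.10.9.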

Additional observations from a re-analysis of the deposited data

Results flagged for a closer look

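In 4 guidance genes the 3 same-numbered pairs of libraries of one contrast moved one way and those of the other contrast moved the opposite way. In each the difference itself was tested as the interaction, and edgeR called none, with or without the block. The share of all genes with such signs was not counted, so the 4 are not read as a trait of guidance genes. DESeq2 with the block called Unc5b, at -0.66 ± 0.20 (adjusted p = 0.0363). For Sema3c the effect of p53 loss was positive in all 3 pairs in co-culture and negative in all 3 pairs alone, with an interaction of 0.80 ± 0.53 on the log2 scale (SE, adjusted p = 0.793). For Slit2 the same contrast had these signs, with an interaction of 1.31 ± 0.74 (adjusted p = 0.751). For Unc5b the effect of p53 loss was negative in all 3 pairs in co-culture and positive in all 3 alone (-0.66 ± 0.24, adjusted p = 0.684). Sema7a showed both patterns, with a co-culture effect that was negative in p53-/- and positive in p53+/+ NPCs, and an effect of p53 loss that was negative in co-culture and positive alone (-0.72 ± 0.32, adjusted p = 0.70).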

How the results depend on the processing

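The alternatives kept the direction of every call of a single guidance gene: of 1186 values over 52 calls, 1035 kept direction and call, 151 kept the direction and lost the call, and 0 reversed. Counts of members called moved by more than 1.5 times for p53 loss and the interaction, and for co-culture in fits without 1 library or 1 experiment. For p53 loss alone, where 0 members were higher and 2 lower, DESeq2 called 1 and 4, edgeR with the experiment number as a paired block 6 and 10, DESeq2 with the block 5 and 10, no filter 1 higher, the fit of only the groups compared 1 lower, and the fit without both libraries alone of 17_9, added after the data were seen, 1 higher and 1 lower. For p53 loss in co-culture, with 3 higher and 5 lower, the block called 5 higher, library size alone 2 lower and no filter 3 lower. For the interaction DESeq2 with the block called 1 higher and 1 lower, against 0 and 0. The block also called 19 higher and 4 lower in p53-/- and 18 higher and 10 lower in p53+/+ co-cultures. It ended none of the 52 calls and changed no call other than those given beside the genes. Over the fits without 1 library or 1 experiment, the counts for co-culture ranged from 11 to 16 higher and 1 to 5 lower in p53-/- and from 9 to 15 higher and 4 to 9 lower in p53+/+ NPCs. For p53 loss they ranged from 0 to 2 higher and 1 to 4 lower alone, and from 0 to 4 higher and 0 to 5 lower in co-culture, and for the interaction they were 0 to 0. Library size alone turned the split over all genes for p53 loss in co-culture, with 624 higher and 555 lower against 445 and 677 with TMM, and gave 2840 and 1926 against 2586 and 2341 for co-culture in p53-/- NPCs. The causes were not tested. The calls of 7 results kept without each library were lost without an experiment: Plxnb1 and Robo1 in p53-/- NPCs without 17_9, Sema3b in both genotypes and Slit2 and Unc5b in p53+/+ NPCs in co-culture without 25_9, and Slit1 for p53 loss in co-culture without 17_9 or 25_9. Every call for p53 loss in co-culture was lost in at least 2 of the 3 fits without an experiment. Those of Ntn3, Plxnb1, Plxnb2, Sema3d and Sema4g were lost in all 3, as was that of Robo1 for p53 loss alone. Few counts limit Sema3g, Robo3, Sema3d and the levels of Ntn5 alone.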
